A study of Mus musculus with 12 samples.

Results

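The genes described here encode the aminoacyl-tRNA synthetases, the enzymes that join each amino acid to its transfer RNA. They were chosen by name, as the protein-coding genes whose symbol is 1 amino acid letter followed by ars, with or without 1 or 2 at the end, together with *Farsa*, *Farsb*, *Eprs* and *Tarsl2*. This gave 38 of the 55401 genes in the count table, 21 for cytosolic and 17 for mitochondrial enzymes. All 38 passed the filter on low counts that left 25771 genes for testing. The study asked whether the chemokine receptor CXCR4 is needed by satellite cells, the stem cells of skeletal muscle, at rest and as they become active. Transcripts were sequenced from cells of hind limb muscle sorted by flow cytometry for the Pax7-ZsGreen reporter, either fresh (quiescent, 4 WT and 4 *Cxcr4* KO libraries) or after overnight culture in growth medium (activated, 2 WT and 2 KO libraries). All mice carried both floxed *Cxcr4* alleles and the Pax7-ZsGreen reporter and received tamoxifen at 80 mg/kg by intraperitoneal injection on 5 days. The labels give no age, and the study's methods describe adult mice that were fed a tamoxifen diet after the injections. KO mice differed in also carrying Pax7-creERT2, a Cre recombinase that is made in *Pax7*-expressing cells and acts once tamoxifen is given, so deletion was limited to those cells, and WT mice had no Cre.

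Each cytosolic synthetase supplies the ribosomes of the cytosol with 1 kind of charged tRNA, and several of them sit together in the multisynthetase complex, held by non-enzymatic scaffold proteins. Mitochondria, which translate the few proteins encoded by their own DNA, import a separate set of synthetases made from other nuclear genes, except that *Gars* and *Kars* each encode both the cytosolic and the mitochondrial form. Satellite cells that leave quiescence grow and raise protein synthesis before their first division. Several cytosolic synthetase genes are known targets of ATF4, a transcription factor whose translation increases when amino acids run short or the endoplasmic reticulum is stressed.

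Total counts ranged from 12775593 to 23717013 in quiescent and from 3172164 to 5427280 in activated libraries, so values of low genes in activated cells rest on few reads, and counting error alone is larger there. A single ribosomal RNA gene, *CT010467.1*, took 0.295 to 0.807% of the counts in quiescent and 11.5 to 40.3% in activated libraries. *Cxcr4* was at 61.2, 59.1, 89.6 and 112 CPM in the WT quiescent libraries, 17.6, 21.2, 12.5 and 17.1 in the KO quiescent libraries, 33.3 and 14.4 in the WT activated libraries and 5.39 and 13.7 in the KO activated libraries (CPM is the count scaled to the TMM-adjusted library size), and the genotypes did not overlap in either state. Its log2 fold change of KO against WT was -2.24 ± 0.31 in quiescent (SE, adjusted p = 0.00477) and -1.35 ± 0.46 in activated cells (adjusted p = 0.381) in edgeR's quasi-likelihood test with Benjamini-Hochberg adjustment. The 6 satellite cell markers summed to 1436 to 2451 CPM in quiescent and 303 to 521 CPM in activated libraries, and *Pax7* was at 71.2 CPM or more in every library. The 5 mature fibre markers summed to 211 to 755 and to 4885 to 11980.2 CPM, the 4 endothelial markers to 157 to 747 and to 61.1 to 426 CPM, the 4 fibroadipogenic markers to 53.5 to 201 and to 97.5 to 178 CPM, and the 4 blood markers to 7.31 to 38.1 and to 3.6 to 13.9 CPM. *Xist* was at 1.2 to 7.17 CPM in quiescent and 451 to 817 CPM in activated libraries, while the 4 Y-linked genes summed to 358 to 660 and to 0 to 2.51 CPM, with *Eif2s3y* and *Uty* at 0 in all 4 activated libraries. Culture, depth, the sex of the mice and fibre RNA therefore cannot be told apart in any comparison of activated with quiescent cells. In these bulk samples, fewer cells of a type and less RNA per cell cannot be told apart either.

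Because ATF4 binds an element shared by C/EBP and ATF proteins, the promoters were searched for its core, TGATGNAA, on both strands. RefSeq promoter windows (GRCm38.p6, 250 bases before to 50 after the start) were at hand for 28 of the 38 genes, 14 of each class. The core was found in 5 of the 14 cytosolic windows, those of *Aars*, *Gars*, *Iars*, *Tars* and *Yars*, in 0 of the 14 mitochondrial ones, and in 4.51% of all 27025 genes with a window. 1 match per gene is shown in a 30-base stretch in the direction of the gene, with the match in capitals, because its genes are set beside the others across quiescent libraries. The match of *Aars* begins 10 bases after the start (chr8:111033840-111033869, plus strand). The others begin 30 bases before the start in *Gars* (chr6:55037960-55037989, plus strand), 8 after it in *Iars* (chr13:49682126-49682155, plus strand), 15 before it in *Tars* (chr15:11399655-11399684, minus strand) and 4 after it in *Yars* (chr4:129189895-129189924, plus strand).
Aars: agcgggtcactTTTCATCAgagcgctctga
Gars: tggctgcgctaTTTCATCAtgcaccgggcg
Iars: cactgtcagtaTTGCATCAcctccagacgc
Tars: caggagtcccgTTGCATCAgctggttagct
Yars: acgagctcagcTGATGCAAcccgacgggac
The match was in the reverse complement in all but *Yars*. The letters CACGTG, an E-box that MYC and related proteins bind, were in the windows of *Aars*, *Farsb*, *Iars* and *Tars* among the cytosolic and of *Ears2* among the mitochondrial genes, and in 8.09% of all genes. The matches describe letters in these windows and not bound sites.

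Overnight culture was accompanied by higher mRNA of a number of synthetases of each class in both genotypes. In WT cells 9 of 21 cytosolic genes rose and 2 fell, and in KO cells 10 rose and 1 fell (edgeR quasi-likelihood test, Benjamini-Hochberg adjusted p under 0.05 over all genes tested). Of the 17 mitochondrial genes 5 rose and 0 fell in each genotype. Of all genes tested, 11.5% rose and 18.3% fell in WT and 13.3% rose and 20.4% fell in KO cells. Among the 9554 genes with an average log2 CPM over 3, 24.2% rose and 28.4% fell in WT and 26.8% rose and 29.9% fell in KO cells. The cytosolic shares, 42.9% higher in WT and 47.6% in KO cells, stood above both backgrounds, while the mitochondrial share of 29.4% was close to that of the better expressed genes. The median log2 fold change was 0.69 in WT and 0.94 in KO cells for cytosolic genes and 0.48 and 0.61 for mitochondrial genes, against -0.92 and -0.96 over all genes tested and -0.12 and -0.09 over the better expressed genes. Calls that also needed a log2 fold change beyond 1 and a mean count over 10 left 7 cytosolic genes higher and 1 lower in WT and 9 higher and 0 lower in KO cells, with 4 mitochondrial genes higher in each. Of all genes tested, that rule called 9.39% higher and 16.5% lower in WT and 10.8% higher and 18.4% lower in KO cells. With the replicate number as a block, 15 cytosolic genes were higher and 0 lower in WT, and 17 were higher in KO cells. The share of all genes called with that block is not given here. Some counts rested on 1 library: 3 mitochondrial genes rose in KO cells without KO quiescent replicate 3, and 15 cytosolic genes without KO quiescent replicate 4. In WT, *Tarsl2* and *Wars* were no longer called higher without WT quiescent replicate 3 or 4. Leaving out either WT activated library, with 1 then left, lowered the WT counts of both classes. In KO cells the cytosolic count fell without KO activated replicate 1, and the mitochondrial count fell without either KO activated library.

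**Figure D1:**
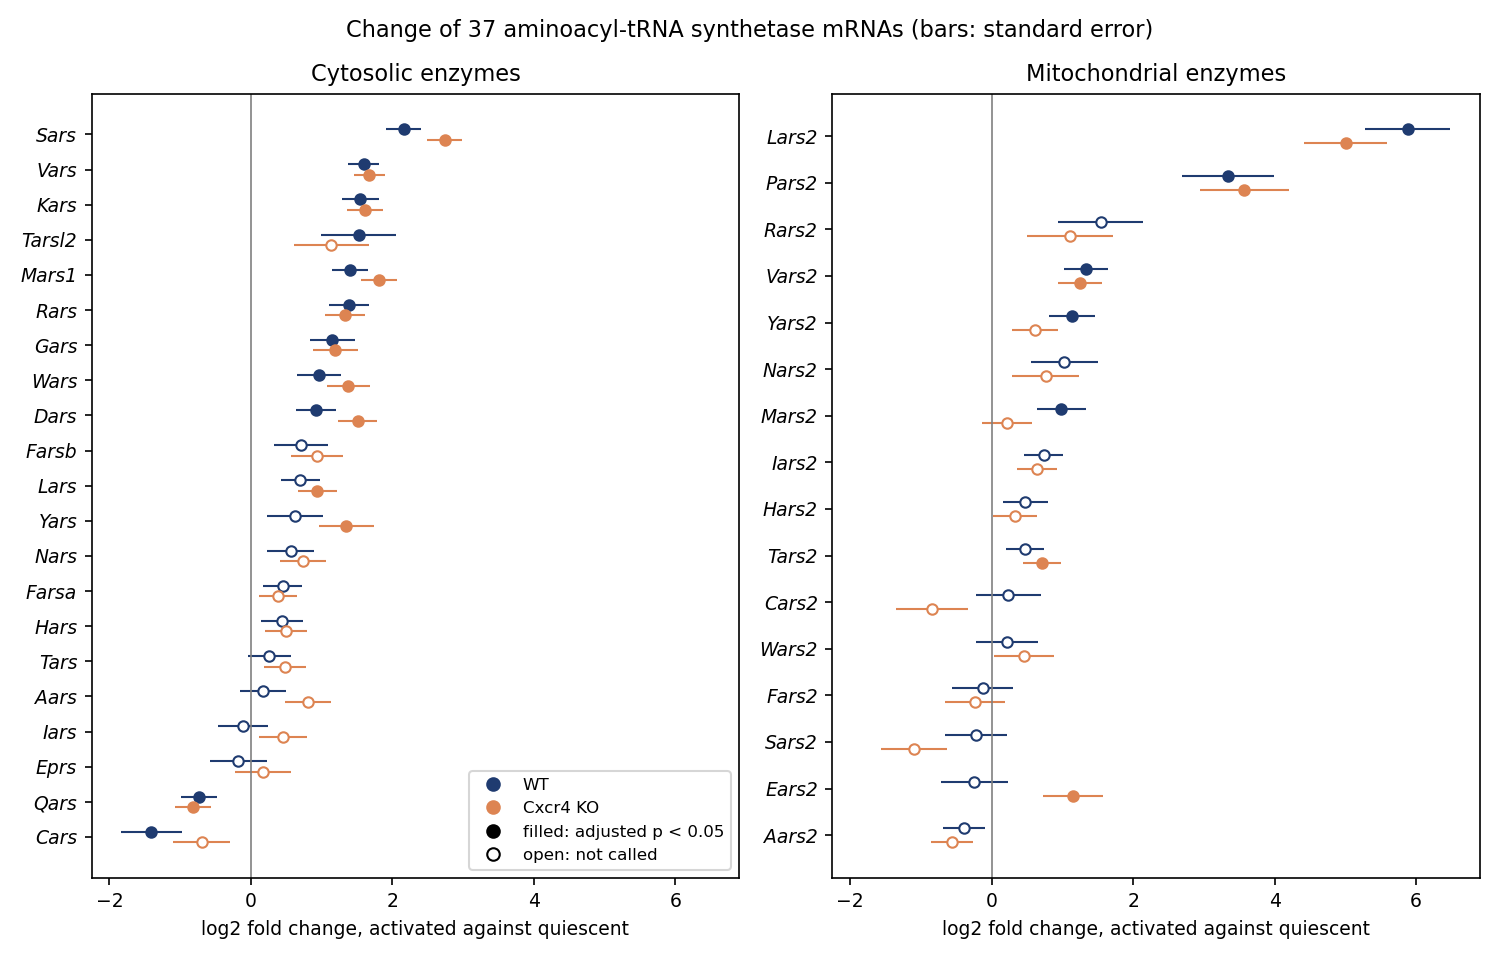
Log2 fold change of activated against quiescent cells (x axis) for the 21 cytosolic genes (left) and 16 of the 17 mitochondrial genes (right), in WT and *Cxcr4* KO cells, with standard errors as bars and filled points for adjusted p under 0.05. Most cytosolic points lie right of 0, led by *Sars* at 2.16 in WT and 2.74 in KO cells, with *Qars* and *Cars* on the left; among mitochondrial genes *Lars2* and *Pars2* stand far from the rest.

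The 6 cytosolic genes with the largest WT change among those called in both genotypes were *Sars*, *Vars*, *Kars*, *Mars1*, *Rars* and *Gars*. *Sars* (chr3:108424865-108445209), which charges the serine tRNAs and also the tRNA for selenocysteine, was at 27.6, 34.8, 26.7 and 27.6 CPM in the WT quiescent libraries, 20.7, 30.7, 29.4 and 33.9 in the KO quiescent libraries, 128 and 133 in the WT activated libraries and 153 and 230.4 in the KO activated libraries. All activated libraries were far above all quiescent ones, with a log2 fold change of 2.16 ± 0.25 in WT (SE, adjusted p = 2.16e-06) and 2.74 ± 0.25 in KO cells (adjusted p = 1.30e-07). *Vars* (chr17:35000987-35016322), for valine, was at 90.7, 88.1, 93.3 and 80.8 CPM in the WT quiescent libraries, 100.0, 93.7, 102 and 94.7 in the KO quiescent libraries, 259 and 274 in the WT activated libraries and 361 and 262 in the KO activated libraries. The quiescent values lay close together and all activated libraries were above them, with a log2 fold change of 1.59 ± 0.22 in WT (SE, adjusted p = 1.45e-05) and 1.67 ± 0.22 in KO cells (adjusted p = 6.98e-06). *Kars* (chr8:111993443-112011323), for lysine in both compartments, was at 33.0, 26.4, 28.9 and 29.4 CPM in the WT quiescent libraries, 36.6, 33.0, 33.6 and 30.7 in the KO quiescent libraries, 86.9 and 85.4 in the WT activated libraries and 139 and 66.8 in the KO activated libraries. The activated libraries again did not overlap the quiescent ones, and the 2 KO activated values differed by more than the WT pair, with a log2 fold change of 1.55 ± 0.26 in WT (SE, adjusted p = 1.27e-04) and 1.62 ± 0.26 in KO cells (adjusted p = 6.87e-05).

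*Mars1* (chr10:127296221-127311786), for methionine, including the one that starts each cytosolic protein, was at 23.3, 30.4, 29.3 and 29.2 CPM in the WT quiescent libraries, 26.1, 17.7, 29.4 and 32.1 in the KO quiescent libraries, 76.5 and 71.4 in the WT activated libraries and 103 and 82.1 in the KO activated libraries. Its exons share 1.99% of their length with *Ddit3* on the other strand. No activated library overlapped the quiescent range, with a log2 fold change of 1.40 ± 0.25 in WT (SE, adjusted p = 3.16e-04) and 1.81 ± 0.25 in KO cells (adjusted p = 1.73e-05). *Rars* (chr11:35808381-35834506), for arginine, was at 12.6, 16.9, 17.8 and 21.8 CPM in the WT quiescent libraries, 17.2, 13.6, 16.6 and 22.5 in the KO quiescent libraries, 43.0 and 47.7 in the WT activated libraries and 50.6 and 37.4 in the KO activated libraries. Its groups were also separate, with a log2 fold change of 1.39 ± 0.28 in WT (SE, adjusted p = 7.57e-04) and 1.33 ± 0.28 in KO cells (adjusted p = 9.81e-04). *Gars* (chr6:55038007-55079500), for glycine in both compartments, was at 13.8, 14.4, 16.4 and 23.1 CPM in the WT quiescent libraries, 14.4, 18.2, 18.5 and 29.4 in the KO quiescent libraries, 39.7 and 35.5 in the WT activated libraries and 60.4 and 31.7 in the KO activated libraries. The lower KO activated library lay just above the highest KO quiescent library, with a log2 fold change of 1.15 ± 0.32 in WT (SE, adjusted p = 0.0109) and 1.19 ± 0.32 in KO cells (adjusted p = 0.00729). Leaving out WT activated replicate 1 ended the *Gars* call in WT (1.14, adjusted p = 0.0676) and leaving out KO activated replicate 1 did so in KO cells (0.65, adjusted p = 0.322). The calls of *Sars*, *Vars*, *Kars*, *Mars1* and *Rars* held in both genotypes without any single library, with *Kars* in KO cells at 1.00 without KO activated replicate 1.

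**Figure D2:**
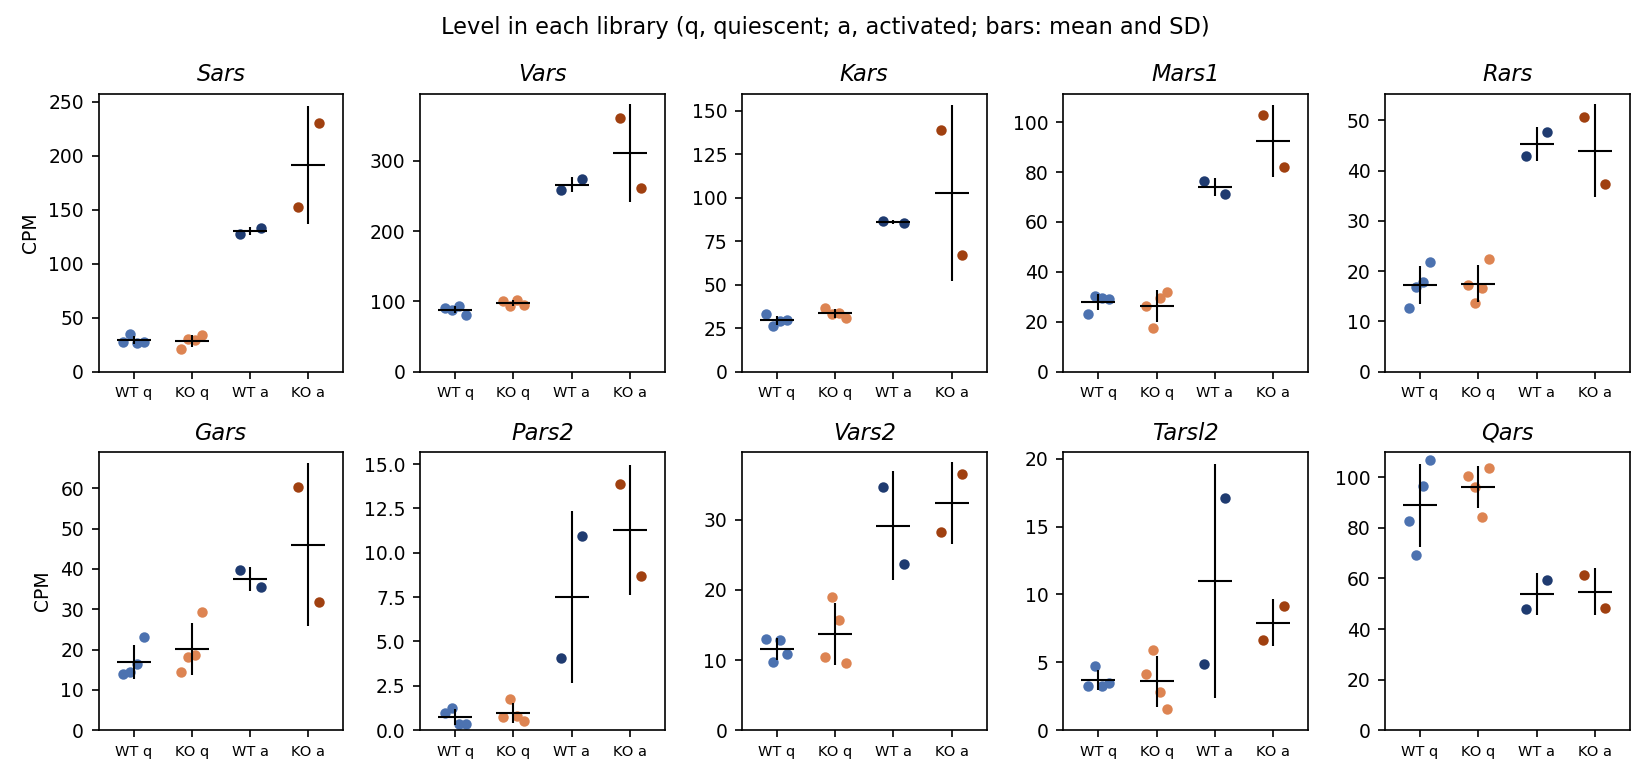
TMM-scaled CPM (y axis, from 0) of 10 genes in each library of the 4 groups, with the mean and SD as bars. For *Sars*, *Vars*, *Kars*, *Mars1* and *Rars* all 4 activated libraries lie above all 8 quiescent ones, *Qars* runs the other way, and *Pars2* and *Tarsl2* have few reads and a wide spread in activated cells.

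*Dars*, for aspartate, and *Wars*, for tryptophan, rose in both genotypes as well. *Dars* had a log2 fold change of 0.92 ± 0.28 in WT (SE, adjusted p = 0.0181) and 1.51 ± 0.27 in KO cells (adjusted p = 2.73e-04), and its WT call was lost without WT activated replicate 2 (0.74, adjusted p = 0.196). *Wars* had a log2 fold change of 0.96 ± 0.31 in WT (SE, adjusted p = 0.0254) and 1.38 ± 0.31 in KO cells (adjusted p = 0.00182), and its WT call was lost without WT quiescent replicate 3 or 4 or either WT activated library (adjusted p between 0.0591 and 0.0988). *Qars*, for glutamine, was the gene that fell in both. It was at 82.8, 69.4, 96.5 and 107 CPM in the WT quiescent libraries, 101, 96.1, 84.3 and 104 in the KO quiescent libraries, 47.9 and 59.6 in the WT activated libraries and 61.4 and 48.1 in the KO activated libraries, so all activated libraries were below all quiescent ones, with a log2 fold change of -0.73 ± 0.25 in WT (SE, adjusted p = 0.0358) and -0.81 ± 0.25 in KO cells (adjusted p = 0.0187). The WT call of *Qars* was lost without WT quiescent replicate 3 or 4 or either WT activated library (adjusted p between 0.0743 and 0.43), and the KO call without either KO activated library (adjusted p = 0.0661 and 0.26). The WT call of *Qars* was also lost with RLE scaling (adjusted p = 0.0549), no filter on low counts (adjusted p = 0.102) and edgeR on the compared groups (adjusted p = 0.0514). Library totals in place of TMM ended the WT calls of *Dars* (0.73, adjusted p = 0.0847) and *Wars* (0.80, adjusted p = 0.12).

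In 4 cytosolic genes 1 genotype passed the test and the other did not, and the difference between genotypes was not called for any of them. *Cars*, for cysteine, had a log2 fold change of -1.41 ± 0.43 in WT (SE, adjusted p = 0.0171) and -0.70 ± 0.40 in KO cells (adjusted p = 0.181). Its WT call was lost without WT activated replicate 2 (-1.01, adjusted p = 0.209). *Tarsl2*, a second cytosolic enzyme for threonine, was at 3.24, 4.75, 3.29 and 3.47 CPM in the WT quiescent libraries, 4.12, 5.94, 2.82 and 1.56 in the KO quiescent libraries, 4.90 and 17.1 in the WT activated libraries and 6.68 and 9.13 in the KO activated libraries. Those activated values come from 30, 39, 26 and 40 counts, and WT activated replicate 2 alone was far above the quiescent range. It had a log2 fold change of 1.52 ± 0.53 in WT (SE, adjusted p = 0.0359) and 1.14 ± 0.53 in KO cells (adjusted p = 0.101), and without that library the WT value was 0.47 (adjusted p = 0.614). Leaving out WT quiescent replicate 1, 3 or 4 also ended the *Tarsl2* call (adjusted p between 0.0601 and 0.068), as did library totals (adjusted p = 0.104), and the value was 2.29 without WT activated replicate 1. *Lars*, for leucine, had a log2 fold change of 0.69 ± 0.28 in WT (SE, adjusted p = 0.0636) and 0.94 ± 0.27 in KO cells (adjusted p = 0.0118), and *Yars*, for tyrosine, a log2 fold change of 0.62 ± 0.40 in WT (SE, adjusted p = 0.226) and 1.35 ± 0.39 in KO cells (adjusted p = 0.0118). The KO call was lost without KO activated replicate 1 for *Lars* (adjusted p = 0.0621) and *Yars* (adjusted p = 0.0662), and for *Lars* also without replicate 2 (adjusted p = 0.0957).

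The remaining 8 cytosolic genes, *Aars*, *Eprs*, *Farsa*, *Farsb*, *Hars*, *Iars*, *Nars* and *Tars*, were not called in either genotype. Their log2 fold changes ran from -0.18 (*Eprs*) to 0.70 (*Farsb*) in WT and from 0.18 (*Eprs*) to 0.93 (*Farsb*) in KO cells. *Farsa* and *Farsb*, which encode the chains of the phenylalanine enzyme, were at 0.45 in WT and 0.38 in KO cells and at 0.70 in WT and 0.93 in KO cells. *Eprs*, which charges both glutamate and proline tRNAs in 1 protein, was at -0.18 in WT and 0.18 in KO cells. Of the 8 cytosolic enzymes in the multisynthetase complex (*Dars*, *Eprs*, *Iars*, *Kars*, *Lars*, *Mars1*, *Qars* and *Rars*), 4 rose and 1 fell in WT and 5 rose and 1 fell in KO cells. Of the 13 outside it 5 rose and 1 fell in WT and 5 rose and 0 fell in KO cells. The medians were 0.81 and 1.13 in the complex and 0.62 and 0.93 outside it. Split by the fold of the catalytic domain, class I had medians of 0.69 in WT and 1.33 in KO cells over 9 genes and class II 0.70 and 0.93 over 11 genes, with *Eprs* belonging to both.

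Among mitochondrial enzymes *Lars2*, *Pars2* and *Vars2* rose in both genotypes. *Lars2* (chr9:123366927-123462666), for leucine, was at 377, 369.8, 243 and 287 CPM in the WT quiescent libraries, 199, 677, 247 and 329.8 in the KO quiescent libraries, 5375 and 32237 in the WT activated libraries and 4746 and 18628 in the KO activated libraries. All activated libraries were far above all quiescent ones, with the WT activated pair wide apart and a log2 fold change of 5.88 ± 0.61 in WT (SE, adjusted p = 6.70e-07) and 5.01 ± 0.59 in KO cells (adjusted p = 2.40e-06). *Lars2* moved with the ribosomal RNA gene *CT010467.1*, which was at 6319, 5627, 3205 and 4101 CPM in the WT quiescent libraries, 2654, 7206, 3022 and 4119 in the KO quiescent libraries, 112093 and 560117 in the WT activated libraries and 105572 and 329928 in the KO activated libraries. The library with the most *CT010467.1* in each activated genotype had the most *Lars2*. The ratio of *Lars2* to *CT010467.1* counts stayed between 0.0597 and 0.094 in quiescent and between 0.045 and 0.0576 in activated libraries. Whether ribosomal RNA reads contribute to the *Lars2* count was not tested. Medians and counts of mitochondrial genes are therefore also given without it: 4 of 16 rose in each genotype, and the median was 0.47 in WT and 0.59 in KO cells.

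**Figure D3:**
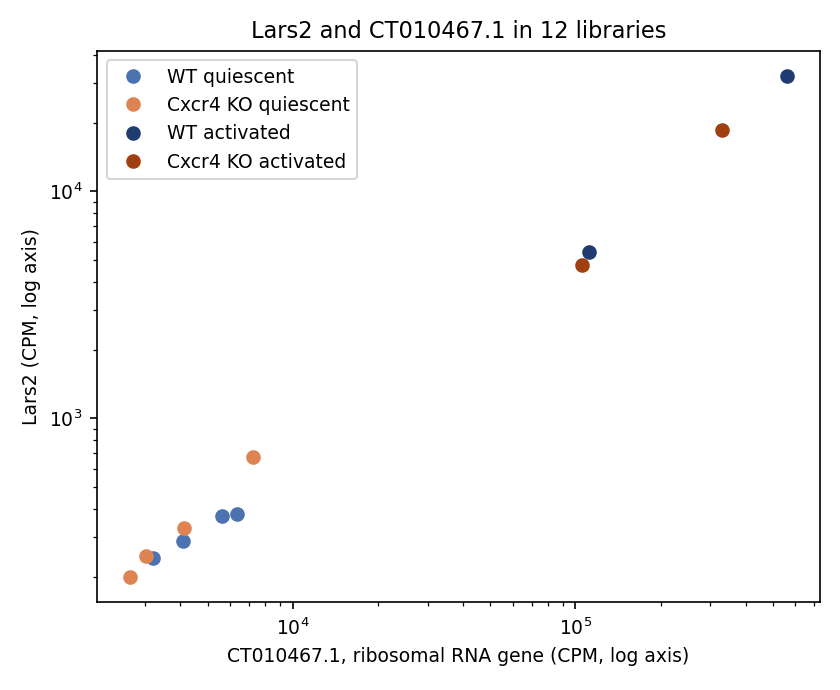
CPM of *Lars2* (y axis) against CPM of the ribosomal RNA gene *CT010467.1* (x axis) in the 12 libraries, both on log axes. The 4 activated libraries lie far up and to the right, WT activated replicate 2 farthest, with 32237 CPM of *Lars2* and 560117 CPM of *CT010467.1*.

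*Pars2* (chr4:106651069-106655282), for proline, was at 0.940, 1.28, 0.351 and 0.337 CPM in the WT quiescent libraries, 0.730, 1.78, 0.789 and 0.519 in the KO quiescent libraries, 4.08 and 10.9 in the WT activated libraries and 13.9 and 8.67 in the KO activated libraries. Every activated library was above every quiescent one, on 25, 25, 54 and 38 counts in the activated and 7 to 26 in the quiescent libraries, with a log2 fold change of 3.34 ± 0.65 in WT (SE, adjusted p = 6.11e-04) and 3.57 ± 0.63 in KO cells (adjusted p = 2.02e-04). *Vars2* (chr17:35655634-35667592), for valine, was at 13.1, 9.72, 12.8 and 10.9 CPM in the WT quiescent libraries, 10.5, 18.9, 15.7 and 9.63 in the KO quiescent libraries, 34.6 and 23.6 in the WT activated libraries and 28.3 and 36.5 in the KO activated libraries. The states did not overlap, with a log2 fold change of 1.34 ± 0.31 in WT (SE, adjusted p = 0.00283) and 1.25 ± 0.31 in KO cells (adjusted p = 0.00423). The *Vars2* call was lost in WT without WT activated replicate 1 (1.10, adjusted p = 0.0788) and in KO cells without KO activated replicate 2 (1.06, adjusted p = 0.0796). The calls of *Lars2* and *Pars2* held without any single library, but their sizes moved. *Lars2* was at 6.73 without WT activated replicate 1 and 4.13 without replicate 2, and at 5.68 and 3.72 without the same replicates in KO cells. *Pars2* in WT was at 4.01 and 2.57 without WT activated replicate 1 and 2.

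In 4 further mitochondrial genes 1 genotype passed the test. *Mars2*, for methionine, had a log2 fold change of 0.99 ± 0.34 in WT (SE, adjusted p = 0.0368) and 0.22 ± 0.35 in KO cells (adjusted p = 0.633), and its WT call was lost without WT quiescent replicate 1 or 2 or either WT activated library (adjusted p between 0.0644 and 0.11). *Yars2*, for tyrosine, had a log2 fold change of 1.14 ± 0.32 in WT (SE, adjusted p = 0.011) and 0.61 ± 0.32 in KO cells (adjusted p = 0.149), and its WT call was lost without WT activated replicate 2 (adjusted p = 0.0658). *Ears2*, for glutamate, had a log2 fold change of -0.24 ± 0.47 in WT (SE, adjusted p = 0.696) and 1.15 ± 0.43 in KO cells (adjusted p = 0.0442). The *Ears2* call in KO cells was lost without KO activated replicate 2 (0.55, adjusted p = 0.541) and also without KO quiescent replicate 1, 2 or 3 (adjusted p between 0.0584 and 0.08). *Tars2*, for threonine, had a log2 fold change of 0.47 ± 0.27 in WT (SE, adjusted p = 0.188) and 0.71 ± 0.27 in KO cells (adjusted p = 0.0457), and its KO call was lost without KO quiescent replicate 3 or 4 or either KO activated library (adjusted p between 0.0618 and 0.24). That call was also lost with upper quartile scaling, library totals, no filter on low counts, DESeq2 and edgeR on the compared groups (adjusted p between 0.0526 and 0.175). Library totals ended the *Mars2* call in WT (adjusted p = 0.0829) and the *Ears2* call in KO cells (adjusted p = 0.086), and the latter was also lost with no filter (adjusted p = 0.0749) and with edgeR on the compared groups (adjusted p = 0.0523). The other 10 mitochondrial genes were not called in either genotype. Their log2 fold changes ran from -0.39 (*Aars2*) to 1.54 (*Rars2*) in WT and from -1.10 (*Sars2*) to 1.10 (*Rars2*) in KO cells. *Iars2* shares 22.9% of its exon length with *Rab3gap2* on the other strand, the largest such overlap in the family, so its reads and those of *Rab3gap2* may be mixed.

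Genes for the same amino acid can be set side by side by their log2 fold changes, in 19 pairs of a cytosolic and a mitochondrial gene. The cytosolic partner had the higher fold change in both genotypes in 9 pairs and the lower one in 5. The widest gap in favour of the cytosol was for serine: *Sars* was at 2.16 in WT and 2.74 in KO cells and *Sars2* at -0.22 in WT and -1.10 in KO cells. For alanine *Aars* was at 0.17 in WT and 0.80 in KO cells and *Aars2* at -0.39 in WT and -0.56 in KO cells. The tryptophan genes were at 0.96 in WT and 1.38 in KO cells (*Wars*) and 0.22 in WT and 0.46 in KO cells (*Wars2*). *Farsa* and *Farsb* both exceeded *Fars2*, which was at -0.13 in WT and -0.24 in KO cells. Methionine kept this order, with *Mars1* at 1.40 in WT and 1.81 in KO cells and *Mars2* at 0.99 in WT and 0.22 in KO cells. So did valine, where both partners rose, with *Vars* at 1.59 in WT and 1.67 in KO cells and *Vars2* at 1.34 in WT and 1.25 in KO cells, and *Tarsl2* beside *Tars2*.

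The mitochondrial partner had the higher fold change in both genotypes for isoleucine, asparagine and leucine, and for *Tars* and *Eprs* beside *Tars2* and *Pars2*. *Iars* was at -0.11 in WT and 0.46 in KO cells and *Iars2* at 0.74 in WT and 0.64 in KO cells. *Nars* was at 0.56 in WT and 0.74 in KO cells and *Nars2* at 1.03 in WT and 0.77 in KO cells. For threonine *Tars* was at 0.26 in WT and 0.48 in KO cells and *Tars2* at 0.47 in WT and 0.71 in KO cells. The order turned between genotypes for cysteine, with *Cars* at -1.41 in WT and -0.70 in KO cells and *Cars2* at 0.24 in WT and -0.85 in KO cells, for glutamate, with *Ears2* at -0.24 in WT and 1.15 in KO cells beside *Eprs*, and for tyrosine, with *Yars* at 0.62 in WT and 1.35 in KO cells and *Yars2* at 1.14 in WT and 0.61 in KO cells. It also turned for arginine, with *Rars* at 1.39 in WT and 1.33 in KO cells and *Rars2* at 1.54 in WT and 1.10 in KO cells, and for histidine, with *Hars* at 0.44 in WT and 0.50 in KO cells and *Hars2* at 0.48 in WT and 0.33 in KO cells. These gaps are descriptions of 2 fold changes with their own errors, and no difference between partners was tested.

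Levels of different genes were compared as CPM per kb of exon (mean ± SD over the libraries of a group). The median cytosolic gene was at 7.78 ± 0.902 CPM per kb in WT quiescent (n = 4), 8.55 ± 2.55 in KO quiescent (n = 4), 14.5 ± 0.354 in WT activated (n = 2) and 16.5 ± 2.14 in KO activated cells (n = 2). The median mitochondrial gene was at 1.66 ± 0.0998, 1.52 ± 0.0798, 2.54 ± 0.173 and 2.22 ± 0.0512 CPM per kb in the same order. The median cytosolic gene was thus above the median mitochondrial gene in every group. *Lars2* alone reached 1696 ± 1713 CPM per kb in WT activated and 1054 ± 885 in KO activated cells, above any cytosolic gene. Whether ribosomal RNA reads contribute to these *Lars2* levels was not tested. In WT quiescent cells the order among cytosolic genes began with *Nars* at 47.7 ± 17.5, followed by *Hars* at 17.8 ± 4.03, *Vars* at 15.7 ± 0.962 and *Aars* at 14.3 ± 4.19 CPM per kb. *Nars* stood clear of *Hars* by more than their SDs, while *Hars*, *Vars* and *Aars* did not differ beyond theirs. The exons of *Aars* share 14.3% of their length with *Exosc6* on the same strand, so strand cannot separate reads there. *Tarsl2* was the lowest at 0.547 ± 0.107 CPM per kb. In WT activated cells *Nars* at 70.5 ± 11.5 was followed by *Vars* at 47.5 ± 1.88 and *Sars* at 25.4 ± 0.737 CPM per kb, and *Tarsl2* was again last among the cytosolic genes. *Sars* went from place 16 of the 38 genes in WT quiescent to place 4 in WT activated cells, and *Qars* from place 6 to place 17. Among mitochondrial genes other than *Lars2*, *Yars2* was the highest in WT quiescent cells at 5.12 ± 1.57 CPM per kb and *Pars2* the lowest at 0.235 ± 0.149.

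Summed over the 21 genes, the cytosolic synthetases took 999, 1008, 1294 and 1509.9 CPM in the WT quiescent libraries, 951, 994, 1234 and 1833 in the KO quiescent libraries, 1787 and 1882 in the WT activated libraries and 2446 and 2226 in the KO activated libraries. KO quiescent replicate 4 was above WT activated replicate 1 but below both KO activated libraries, and within each genotype the states did not overlap. The 16 mitochondrial genes other than *Lars2* summed to 150.1 to 174 CPM over the quiescent and 228 to 259 CPM over the activated libraries. The cytosolic sum was 5.46 to 11 times the mitochondrial one in quiescent and 6.9 to 10.7 times in activated libraries, so this ratio overlapped between the states.

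Deletion of *Cxcr4* was not accompanied by a called change in any synthetase gene. Of the 38 genes 0 were called between KO and WT in quiescent cells, where 0.0155% of all genes tested were called, and 0 in activated cells, where 0.0504% were. The difference of the KO effect between the states was called for 0 of the 38 genes and for 0% of all genes. At an unadjusted p under 0.05, edgeR's quasi-likelihood test found 0, 2 and 1 of the 38 genes in these comparisons and DESeq2 0, 1 and 1, and DESeq2 called 0 in each. The median log2 fold change of KO against WT over cytosolic genes was 0.02 in quiescent and 0.29 in activated cells, and over mitochondrial genes 0.06 and -0.12. In quiescent cells the range over all 38 was -0.25 to 0.40. *Mars2* was at 14.4, 18.2, 23.9 and 27.3 CPM in the WT quiescent libraries and 33.8, 15.7, 18.7 and 34.3 in the KO quiescent libraries, and *Iars2* at 16.6, 14.7, 16.0 and 11.6 CPM in the WT quiescent libraries and 13.6, 12.6, 14.3 and 10.1 in the KO quiescent libraries. The genotypes overlapped in both. With *Gars* they had the smallest unadjusted p there, at log2 fold changes of 0.29 ± 0.28 (SE, *Mars2*), -0.22 ± 0.23 (*Iars2*) and 0.25 ± 0.27 (*Gars*), each with an adjusted p of 1 in edgeR's quasi-likelihood test.

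In activated cells the smallest unadjusted p belonged to *Cars2*, *Ears2* and *Sars*. *Cars2*, for cysteine, was at 9.48 and 7.44 CPM in the WT activated libraries and 1.03 and 5.93 in the KO activated libraries, from 58, 17, 4 and 26 counts. KO activated replicate 1 had 4 reads, and the log2 fold change was -1.28 ± 0.58 (SE, adjusted p = 0.584), or -0.54 without that library and -3.10 without KO activated replicate 2. *Ears2* was at 5.06 and 5.25 CPM in the WT activated libraries and 7.45 and 15.3 in the KO activated libraries, with a log2 fold change of 1.15 ± 0.54 (adjusted p = 0.595), or 0.48 without KO activated replicate 2 and 1.55 without replicate 1. *Sars* was at 128 and 133 CPM in the WT activated libraries and 153 and 230.4 in the KO activated libraries, with a log2 fold change of 0.56 ± 0.30 (adjusted p = 0.648), or 0.17 without KO activated replicate 2 and 0.81 without replicate 1. The same genes had the smallest unadjusted p for the difference of the KO effect between the states, with *Ears2* at 1.39 ± 0.64 (adjusted p = 0.739), *Sars* at 0.58 ± 0.36 and *Cars2* at -1.08 ± 0.68. With 2 activated libraries per genotype, SEs of KO against WT in activated cells were 0.26 for *Vars* and 0.75 for *Pars2*, which limits the differences that could be detected.

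Within the quiescent groups, many cytosolic synthetases were highest in the same library, while *Vars* and *Kars* varied little in either genotype. *Eprs* was at 126, 127, 156 and 186 CPM in the WT quiescent libraries and 71.1, 96.3, 157 and 314 in the KO quiescent libraries. *Yars* was at 46.1, 45.8, 85.7 and 114 CPM in the WT quiescent libraries and 40.5, 44.0, 67.3 and 123 in the KO quiescent libraries, and *Aars* at 107, 101, 135 and 186 CPM in the WT quiescent libraries and 74.6, 107, 139 and 206 in the KO quiescent libraries. In these 3 genes WT replicate 4 and KO replicate 4 were the highest of their groups. KO replicate 4 was the highest KO quiescent library for 16 of the 21 cytosolic genes (76.2%) and for 4 of the 17 mitochondrial genes (23.5%), and for 44.8% of the 9554 better expressed genes. WT replicate 4 was the highest WT quiescent library for 11 of 21 cytosolic (52.4%) and 3 of 17 mitochondrial genes (17.6%), and for 41.2% of the better expressed genes. The highest KO quiescent value was over 2 times the lowest in 11 cytosolic genes: 4.42 times for *Eprs*, 3.81 for *Tarsl2*, 3.12 for *Cars*, 3.04 for *Yars*, 2.77 for *Aars*, 2.5 for *Iars*, 2.32 for *Nars*, 2.21 for *Hars*, 2.14 for *Lars*, 2.13 for *Tars* and 2.04 for *Gars*. It was 1.09 times for *Vars*, 1.19 for *Kars* and 1.23 for *Qars*. In the WT quiescent libraries the same ratio was 1.16 for *Vars*, 1.25 for *Kars* and 1.54 for *Qars*, and the widest were 2.49 for *Yars*, 2.34 for *Cars* and 2.13 for *Nars*. The share of all genes with a ratio over 2 is not given here. The median SD, as a percentage of the mean, was 31.6% for cytosolic and 24.8% for mitochondrial genes in KO quiescent libraries. It was 22.7% there for the better expressed genes. In WT quiescent libraries these medians were 21.8%, 25.6% and 18.7%, so mitochondrial genes varied more than cytosolic ones. Replicate 4 was the lowest library for 3 of the 21 cytosolic genes in each genotype. These were *Tarsl2*, *Wars* and *Kars* in KO and *Farsb*, *Vars* and *Wars* in WT cells. *Wars* was at 48.9, 44.0, 26.0 and 25.7 CPM in the WT quiescent libraries and 44.2, 27.1, 46.1 and 24.6 in the KO quiescent libraries, lowest in replicate 4 of both genotypes.

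In the KO quiescent libraries the 5 genes with a TGATGNAA match had ratios from 2.04 to 3.04. Cytosolic genes whose window had no match ran from 1.19 (*Kars*) to 4.42 (*Eprs*) there. In the WT quiescent libraries the match genes ran from 1.67 (*Gars*) to 2.49 (*Yars*). Those with no match ran from 1.17 (*Dars*) to 1.64 (*Farsa*). Cytosolic genes whose window was not analysed here ran from 1.16 (*Vars*) to 2.34 (*Cars*) in WT. Whether the match bears on this spread was not tested. Of 10 genes, *Atf4* and 9 that it is known to induce, 7 were highest in WT replicate 4 and 6 in KO replicate 4. *Mthfd2*, a mitochondrial folate enzyme, was at 16.1, 17.9, 33.0 and 55.7 CPM in the WT quiescent libraries and 13.9, 21.5, 37.1 and 69.4 in the KO quiescent libraries, and *Sesn2*, a sensor of leucine, at 90.2, 85.8, 96.1 and 161 CPM in the WT quiescent libraries and 41.8, 67.8, 105 and 171 in the KO quiescent libraries. Both were highest in replicate 4 of each genotype, whereas *Asns*, for asparagine synthesis, was lowest there, with 4.49, 4.61, 2.28 and 1.97 CPM in the WT quiescent libraries and 5.11, 5.88, 3.49 and 2.08 in the KO quiescent libraries. The 4 endothelial markers summed to 747, 744, 298 and 341 CPM in the WT and 731, 271, 732 and 157 CPM in the KO quiescent libraries, lowest in KO replicate 4, and none of them was at 0. The libraries with the higher endothelial sums, WT 1 and 2 and KO 1 and 3, were also those with the higher *Wars*. Total counts were 17532019, 12775593, 23058947 and 22785815 in the WT and 17238391, 13075208, 22897189 and 23717013 in the KO quiescent libraries, higher in replicates 3 and 4 of both genotypes than in replicates 1 and 2. Genes with printed values in these libraries were chosen after their values were seen, and the part of endothelial RNA and of depth in these library differences was not tested.

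**Figure D4:**
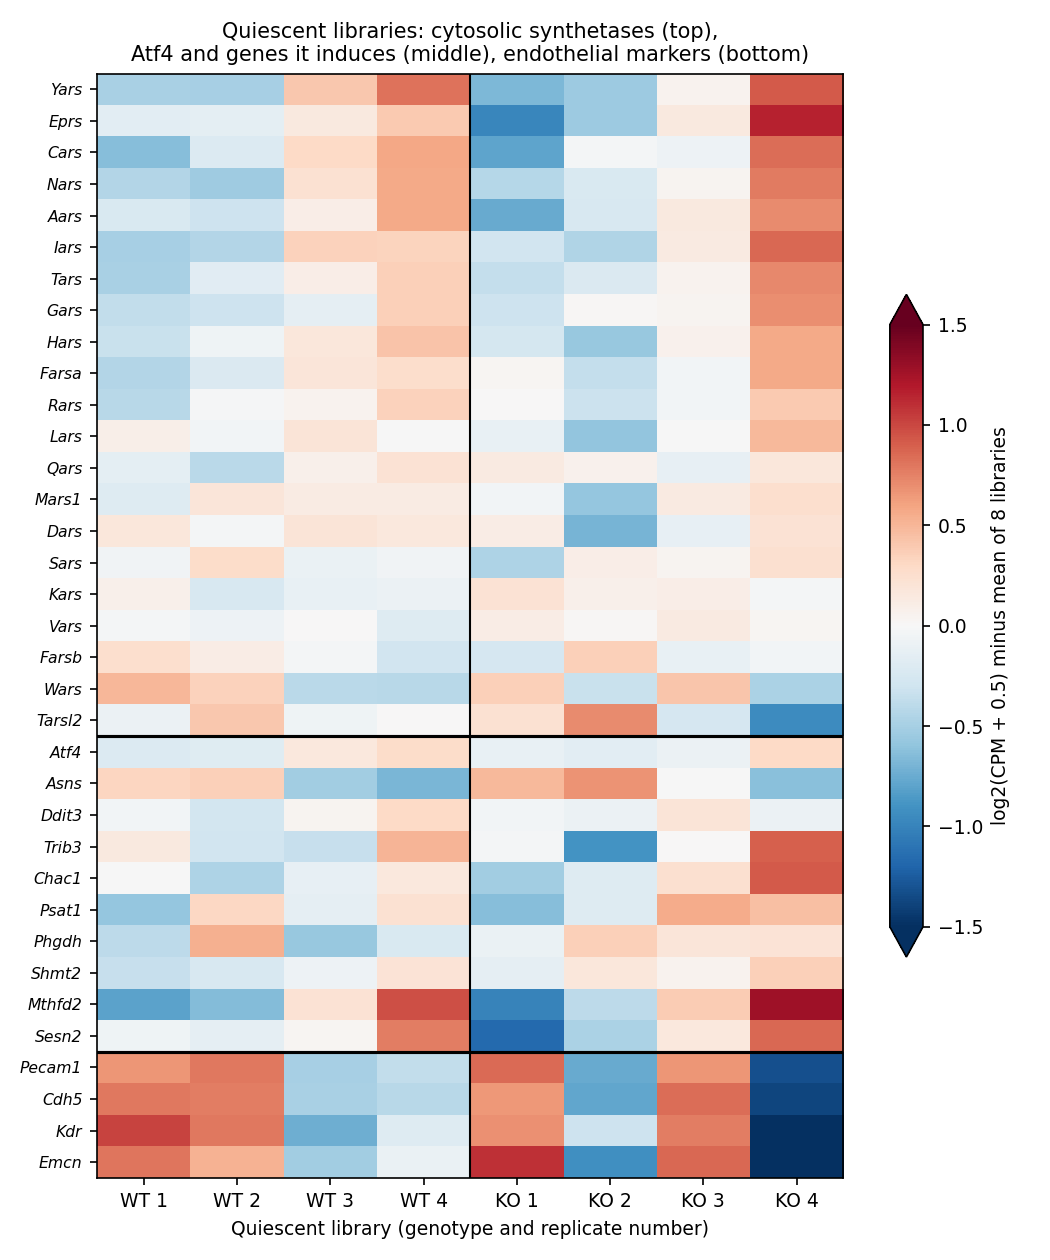
Deviation of log2(CPM + 0.5) from the mean of the 8 quiescent libraries (colour) for the 21 cytosolic genes, *Atf4* with 9 genes it induces, and 4 endothelial markers (rows), by genotype and replicate number (columns). Cytosolic rows are sorted by their deviation in WT 4 plus that in KO 4, which places the reddest rows of these columns first. The red block in WT 4 and KO 4 covers most cytosolic genes at the top and *Mthfd2* and *Sesn2*, while the endothelial rows are blue in KO 4, KO 2, WT 3 and WT 4.

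The genes that work beside the synthetases were taken from lists named for their role. Among the better expressed genes 24.2% rose and 28.4% fell in WT, and 26.8% rose and 29.9% fell in KO cells. Lists of 3 or 4 genes are too short for their counts to be set apart from these shares. Of the 3 scaffold proteins of the multisynthetase complex, *Aimp2* (1.08 in WT and 1.38 in KO cells) and *Eef1e1* (2.29 in WT and 1.60 in KO cells) rose in both genotypes and *Aimp1* (0.84 in WT and 0.88 in KO cells) passed in neither. *Xpot*, which exports tRNA from the nucleus, rose in both (1.16 in WT and 1.18 in KO cells). The 4 factors that serve the mitochondrial ribosome rose in WT, and 3 of them in KO cells: *Tufm*, the mitochondrial elongation factor that carries charged tRNA, by 1.99 in WT and 1.81 in KO cells, its exchange factor *Tsfm* by 2.04 in WT and 2.19 in KO cells and *Gfm1* by 1.39 in WT and 0.97 in KO cells, with *Gfm2* at 1.00 in WT and 0.55 in KO cells. Of the 4 cytosolic elongation factors 0 rose. *Eef1a1*, which carries charged tRNA to the cytosolic ribosome, fell in WT (-0.78 ± 0.29, SE, adjusted p = 0.0461) and was at -0.62 ± 0.28 in KO cells (adjusted p = 0.0971).

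Mitochondria make glutaminyl-tRNA by changing a mischarged glutamyl-tRNA and formylate the initiator methionyl-tRNA. Of the 4 genes for these steps *Gatc* rose in both genotypes (1.05 in WT and 1.26 in KO cells), *Gatb* in WT (1.89 in WT and 0.85 in KO cells), and *Qrsl1* (0.43 in WT and 0.77 in KO cells) and *Mtfmt* (0.62 in WT and 0.87 in KO cells) passed in neither. Of the 4 genes that remove wrong amino acids from tRNA, *Dtd2* (1.63 in WT and 0.71 in KO cells) and *Prorsd1* (1.29 in WT and 0.86 in KO cells) rose in WT, *Dtd1* fell in KO cells (-0.52 in WT and -1.43 in KO cells), and *Aarsd1* passed in neither. Of 9 genes known to be induced by ATF4, 5 rose in WT and 7 in KO cells and 0 fell, against 24.2% and 26.8% higher among the better expressed genes. *Asns* (2.83 in WT and 2.71 in KO cells), *Shmt2* (2.16 in WT and 2.30 in KO cells), *Psat1* (2.13 in WT and 2.15 in KO cells) and *Chac1* (1.11 in WT and 1.09 in KO cells) rose in both. *Phgdh* passed in WT (1.27 in WT and 0.67 in KO cells), and *Ddit3* (0.19 in WT and 1.34 in KO cells), *Trib3* (1.16 in WT and 2.78 in KO cells) and *Mthfd2* (1.13 in WT and 2.06 in KO cells) passed in KO cells. *Atf4* itself (-0.40 in WT and -0.18 in KO cells) and *Sesn2* (-1.19 in WT and -1.17 in KO cells) passed in neither. KO activated replicate 2 was the highest library for *Ddit3*, at 145 CPM against 64.0 in replicate 1, and for *Trib3*, at 81.9 against 20.5 CPM.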

How the data were processed

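Raw read counts per gene were deposited by the authors for 12 libraries, and FPKM values as 1 value per group. Per the labels, NEBNext Ultra libraries were made from polyA RNA. Per the submitters' processing notes and methods, the authors trimmed reads (Trim Galore 0.6.0), mapped them to GRCm38 (STAR 2.7.2a) and assigned them to GENCODE genes by Rsubread. The strand setting was not given in the sources used here. The deposited counts were filtered with filterByExpr, scaled by TMM and fitted with 1 mean per group (edgeR 4.0.16, R 4.3.3, quasi-likelihood F test, Benjamini-Hochberg over 25771 genes, called under 0.05). SEs were taken from the fold change and F. Log2 CPM used a prior count of 2. Exon lengths came from GENCODE (GRCm38).

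Alternatives were other scalings and filters, a stricter call, a robust fit, DESeq2 1.42.0, the compared groups alone, the replicate number as a block, leaving out each library, and omitting *CT010467.1*. Where 1 library was left, it was assumed to vary like the others. Scripts were tested on simulated data. The study's methods count samples as independent mice without naming the mouse behind each library, so p-values measure the spread between libraries. Members and lists were chosen with earlier results of these data known. Full values were given for the 6 cytosolic and up to 4 mitochondrial genes with the largest WT change called in both genotypes, *Tarsl2*, *Gars* and *Kars*, and the 3 smallest p-values of each KO comparison. *Qars*, *Eprs*, *Yars* and *Aars* were added after their values were seen. Values of 1 gene and 1 promoter sequence are not reported here.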

Additional observations from a re-analysis of the deposited data

Results flagged for a closer look

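In the quiescent groups of 4 libraries, 5 of 74 sets of values (37 genes in 2 genotypes) held a library set apart from the other 3 by Dixon's criterion, which chance meets in about 1 of 20 groups. *Dars* was low in WT quiescent replicate 2 at 20.4 CPM, and the same library was high for *Sars* at 34.8 CPM and for *Tarsl2* at 4.75 CPM. *Rars2* was low in WT quiescent replicate 4 at 0.674 CPM. *Sars2* was high in KO quiescent replicate 2 at 12.6 CPM. No gene of the family had a difference of the KO effect between the states that passed the test.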

How the results depend on the processing

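The genes named with a test kept their direction in all 264 values that left out a library, of which 36 lost a call, and in all 445 under other alternatives, of which 19 did. Both sets of values include those of the KO comparisons, where no gene of the family was called, so no call could be lost there. The counts between KO and WT and for the difference of the KO effect stayed at 0 under every alternative. Without 1 library, the counts in WT ran from 6 to 9 for cytosolic genes higher, 0 to 2 lower, 3 to 5 for mitochondrial genes higher and 0 to 0 lower, and in KO cells from 7 to 15, 0 to 1, 2 to 4 and 0 to 1. No label says that libraries with the same replicate number belong together. Correlations of deviations were 0.311, 0.161, -0.35 and 0.657 for quiescent numbers 1 to 4. They ran from -0.563 to 0.391 for quiescent libraries of different numbers. The activated value was -0.109, and its size is the same for every activated pair, so it cannot decide. Whether the number marks a shared batch was not tested. The block ended the WT calls of *Cars* (adjusted p = 0.0503), *Qars* (0.064) and *Tarsl2* (0.153) and the KO call of *Tars2* (0.0977). With the replicate block 15 cytosolic genes were higher and 0 lower in WT, and 17 cytosolic genes higher and 1 mitochondrial gene lower in KO cells. With the activated numbers crossed, chosen after seeing the data, these counts were 14 and 1 in WT and 17 and 1 in KO cells. In WT, 1 cytosolic gene was lower under RLE scaling, no filter, edgeR on the compared groups and the stricter call. In KO cells 0 were lower with the stricter call, and 3 mitochondrial genes were higher with library totals, no filter and edgeR on the compared groups. Using only the activated libraries with under 25% of counts in *CT010467.1* (1 per genotype, chosen after seeing the data) gave 0 cytosolic genes lower in each genotype, 3 mitochondrial genes higher in WT, 2 higher and 1 lower in KO cells, and a mitochondrial median of 0.82 in WT. Library totals moved the median of all genes by -0.11 in each genotype. The deposited FPKM put the KO quiescent mitochondrial median at 1.39, against 1.52 CPM per kb. The causes were not tested. Depth limits genes such as *Pars2*, *Tarsl2* and *Cars2*, with 4 to 58 counts in activated libraries.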
